A study of Mus musculus with 24 samples.

Results

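The 34 genes described here are the receptors PPAR alpha (Ppara) and PPAR delta (Ppard), the enzymes and carriers that burn fatty acids in mitochondria and peroxisomes, and other genes known as PPAR targets. They were taken by a list of names, with no cut on their values, from a count table of 57126 gene identifiers. All 34 symbols were found in the table, and 32 had enough counts to be tested. The 2 others were Cyp4a10, a fatty acid hydroxylase with 1 count over the 24 libraries, and Acaa1b, a peroxisomal thiolase with 83.

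The libraries came from fragments of ileum of wild-type male C57BL/6J mice that had been starved for 4 h. The fragments were cultured for 8 h with the solvent DMSO, with tauro-conjugated chenodeoxycholic acid (tCDCA), or with an extract of a wild-type (WT) or an Asbt-/- donor mouse in the form CME(-) or CME(+). Asbt is the ileal carrier that takes up bile acids, and its loss concerns the extract donor only: the cultured tissue was wild-type in every library. The labels do not spell out CME. CME(+) was taken as the form depleted of bile acids, because the treatment text mentions bile acid depletion. In addition, 200 µM is stated for replicates 2 to 4 of CME(-) and of tCDCA but never for CME(+). Replicate 1 of CME(-) and of tCDCA has no stated concentration. Each group has 4 libraries made by QuantSeq, which reads mRNA near its polyadenylated end. The labels mark 3 libraries as removed: DMSO replicate 1, which had another solvent concentration, and, for poor mapping, WT CME(+) replicate 2 and Asbt-/- CME(-) replicate 3. That left 21 used libraries, 4 in the tCDCA, WT CME(-) and Asbt-/- CME(+) groups and 3 in each of the others. The labels leave out whether replicates are separate animals. The p-values therefore reflect the spread between these libraries, which may be technical.

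Replicate 1 of each group carries another column prefix than replicates 2 to 4. The prefixes were taken as a first and a second sequencing run. DMSO has no used library of the first run. Each used library held 2.76 to 5.6 M counts in all, and the 34 genes together held 0.102 to 0.207% of them. Mitochondrial rRNA took 5.29% of the counts in tCDCA replicate 3, against 28.1 and 33.1% in tCDCA replicates 4 and 2. Levels are given as CPM, counts set to a common library size after scaling between libraries, and they are not divided by transcript length. Markers of absorptive enterocytes, the main cell of the ileal lining, were all detected in every group.

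PPARs are nuclear receptors that bind fatty acids. They pair with the receptor RXR on DNA and raise the transcription of genes for fatty acid uptake, activation and oxidation. In the intestine they respond to dietary fat, and their targets are most active in the enterocytes of the villus. To be oxidised, a long fatty acid is joined to coenzyme A, carried into the mitochondrion as a carnitine ester, and shortened in repeated turns of the same enzyme steps. The electrons pass to the respiratory chain through electron transfer flavoprotein.

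RXR and PPAR bind a direct repeat of the hexamer AGGTCA with a single base between the copies. RefSeq promoter windows of build GRCm38.p6, from 250 bases before to 50 bases after the start of transcription, matched 28 of the 34 genes with 30 windows. A 13-base match with at most 2 mismatches over the 12 fixed bases, on either strand, was found in 5 of the 30 windows (16.7%), those of Creb3l3, Fabp1, Plin2, Slc25a20 and Etfa. Of all 32851 windows, 3.86% held such a match. A match describes letters only and is not a binding site. No other motif was searched. The 250 bases before the start follow for 3 genes that fell with tCDCA and for Fabp1, whose match had the fewest mismatches. Vnn1, which fell as well, had no window and was not searched. Capitals mark the match.
Creb3l3, chr10:81092592-81092841, minus strand, 2 mismatches: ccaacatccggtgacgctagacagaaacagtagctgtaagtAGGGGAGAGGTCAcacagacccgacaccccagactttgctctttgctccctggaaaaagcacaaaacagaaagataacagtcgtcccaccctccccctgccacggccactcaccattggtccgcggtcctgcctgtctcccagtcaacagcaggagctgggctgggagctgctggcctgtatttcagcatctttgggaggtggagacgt
Acsl5, chr19:55253119-55253368, plus strand, no match: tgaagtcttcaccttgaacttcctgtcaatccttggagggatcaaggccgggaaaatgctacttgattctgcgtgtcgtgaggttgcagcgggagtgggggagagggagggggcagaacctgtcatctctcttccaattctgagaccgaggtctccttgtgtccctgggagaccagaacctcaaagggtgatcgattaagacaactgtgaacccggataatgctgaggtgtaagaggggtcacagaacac
Hadh, chr3:131272102-131272351, minus strand, no match: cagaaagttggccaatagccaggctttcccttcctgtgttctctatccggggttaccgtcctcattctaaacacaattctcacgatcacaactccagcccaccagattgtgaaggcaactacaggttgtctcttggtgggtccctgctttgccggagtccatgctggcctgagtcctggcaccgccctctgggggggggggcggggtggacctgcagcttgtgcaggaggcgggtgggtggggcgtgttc
Fabp1, chr6:71199629-71199878, plus strand, 1 mismatch, match on the minus strand: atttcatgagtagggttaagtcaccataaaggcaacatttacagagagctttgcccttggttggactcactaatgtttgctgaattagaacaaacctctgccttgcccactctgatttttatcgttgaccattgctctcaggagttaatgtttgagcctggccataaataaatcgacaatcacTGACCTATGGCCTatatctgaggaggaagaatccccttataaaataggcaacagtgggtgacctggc

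Creb3l3 has a second start window, which held no match. The match of Creb3l3 was centred 203 bases before its start and that of Fabp1 61 bases before.

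The comparison of tCDCA with DMSO asks what a single bile acid conjugate does to these genes. With tCDCA, 4 of the 32 tested genes changed, and all 4 fell: Acsl5, Vnn1, Creb3l3 and Hadh. That is 12.5% of them, and 5.68% of all 13125 genes tested were called in the same comparison (edgeR quasi-likelihood test, Benjamini-Hochberg adjusted p under 0.05). The fitted change was below 0 for 24 of the 32 genes and above 0 for 8. Their median was -0.14 on the log2 scale, and that of all genes was 0.00. The carnitine shuttle, 6 of the 7 genes of the mitochondrial turns and the electron transfer flavoprotein gave no call.

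**Figure D1:**
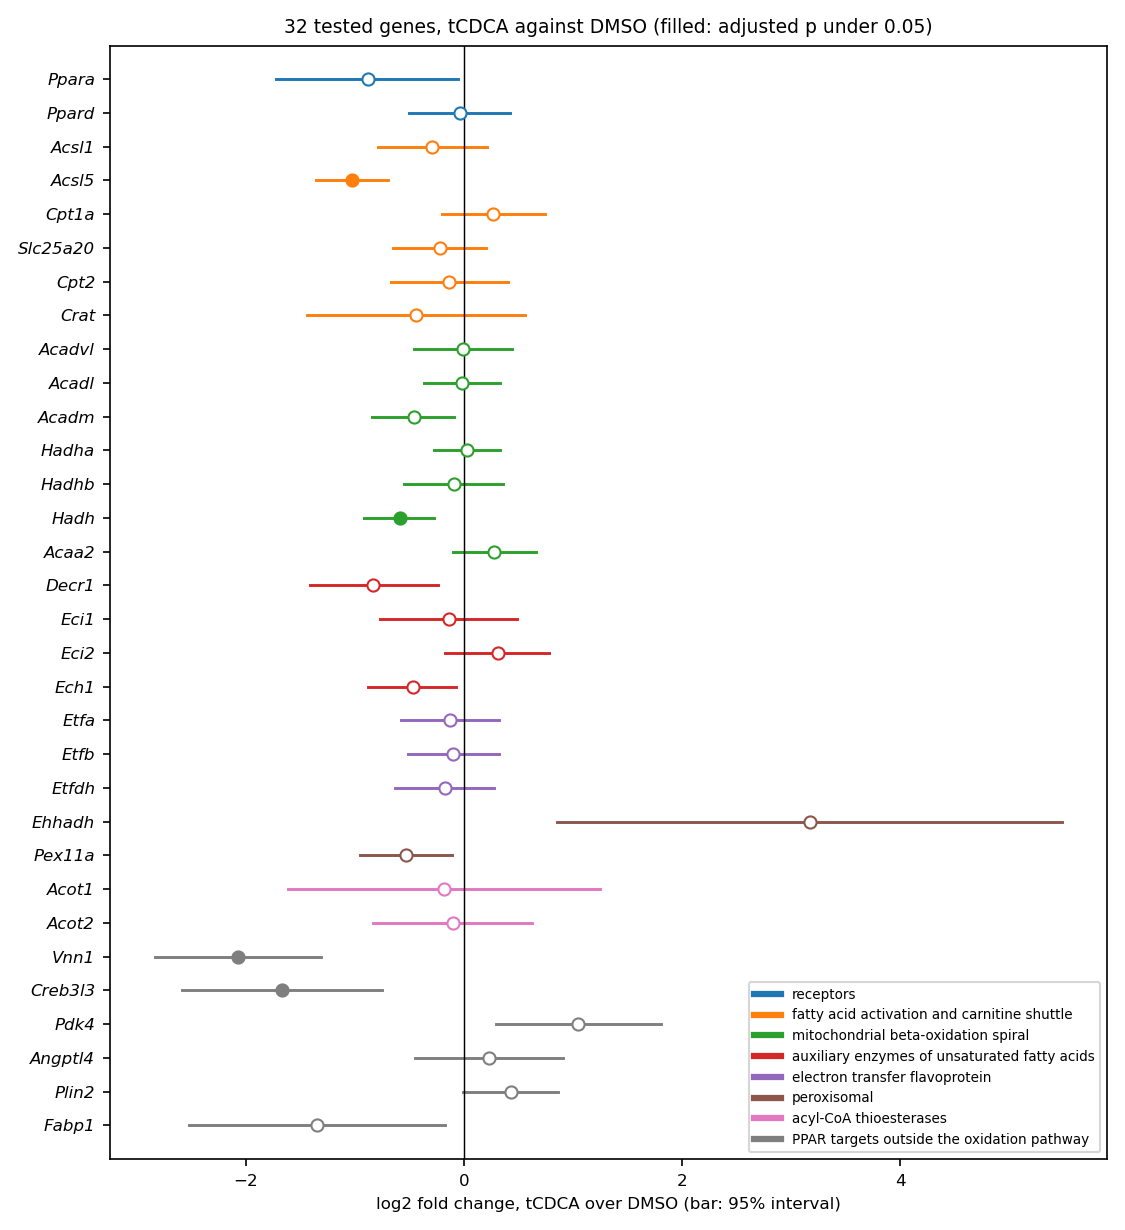
Log2 fold change of the 32 tested genes with tCDCA over DMSO (horizontal axis), grouped by role in colour, with 95% intervals as bars; filled points passed the test. Acsl5, Hadh, Vnn1 and Creb3l3 are the filled points and all lie below 0, and Ehhadh has the widest interval.

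Of the receptors, Ppara did not pass the test. It was at 27.2, 11.2 and 9.42 CPM in DMSO replicates 2, 3 and 4, and at 5.05, 8.82, 3.92 and 6.60 CPM in tCDCA replicates 1 to 4. All 4 tCDCA libraries lay below the 3 DMSO libraries, and the DMSO libraries differed widely among themselves. The fitted difference was -0.88 ± 0.41 (log2, SE; edgeR adjusted p = 0.247). In the second-run libraries alone Ppara was called, at -1.31 ± 0.39 (edgeR adjusted p = 0.0405), and likewise without tCDCA replicate 1, at -1.32 (edgeR adjusted p = 0.0377). The removed DMSO library, of the first run, had 5.35 CPM, next to 5.05 CPM in the tCDCA library of that run. Ppard, the receptor that is widespread across cell types, differed by -0.04 with a 95% interval of -0.50 to 0.42.

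Acsl5 fell with the smallest p of the 32 genes. It encodes an acyl-CoA synthetase that is abundant in the intestine and joins coenzyme A to long fatty acids. Its level was 444, 412 and 358 CPM in the DMSO libraries, and 240, 222, 180 and 177 CPM with tCDCA. The groups did not overlap. Acsl5 fell by 1.03 on the log2 scale, 2.04-fold (SE 0.16; edgeR adjusted p = 4.6e-05), and the call held under all 19 alternatives, with changes from -1.11 to -0.88. The other 5 genes of activation and the carnitine shuttle did not pass the test. Acsl1, a second long-chain acyl-CoA synthetase, differed by -0.29 ± 0.25 (SE). Cpt1a, whose product makes the carnitine ester at the outer membrane and is the rate-controlling step of entry, differed by 0.27, with an interval of -0.20 to 0.74. Slc25a20, the carnitine carrier of the inner membrane, Cpt2, which returns the chain to coenzyme A, and the carnitine acetyltransferase gene Crat had values of -0.22, -0.14 and -0.44.

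In the mitochondrial turns only Hadh was called. It encodes the dehydrogenase that carries out the NAD-dependent step for short and medium chains. In the removed DMSO library, of the first run, Hadh was at 144 CPM, next to 119 CPM in the first-run tCDCA library. In the used libraries Hadh was at 233, 239 and 274 CPM with DMSO and at 119, 124, 169 and 176 CPM with tCDCA, without overlap. It fell by 0.59 on the log2 scale, 1.51-fold (SE 0.16; edgeR adjusted p = 0.0215). The Hadh call held under 13 of 19 alternatives and was lost under 6. Among these 6 were the fits without DMSO replicate 3 (-0.62, edgeR adjusted p = 0.0574), without DMSO replicate 4 (-0.51, edgeR adjusted p = 0.0989) and without tCDCA replicate 2 (-0.47, edgeR adjusted p = 0.0823). Hadha and Hadhb encode the subunits of the trifunctional protein for long chains, and their RefSeq promoter windows overlap on opposite strands. Hadha differed by 0.03 (95% interval -0.27 to 0.33) and Hadhb by -0.09 (-0.55 to 0.36). Of the acyl-CoA dehydrogenases, which start each turn, Acadvl for very long chains was at -0.01 (-0.46 to 0.44) and Acadl for long chains at -0.02 (-0.37 to 0.33). Acadm, for medium chains, was at 61.1, 61.2 and 66.2 CPM with DMSO and 49.4, 47.2, 39.2 and 38.0 CPM with tCDCA. These Acadm levels of the used libraries did not overlap. The removed DMSO library, of the first run, had 41.5 CPM, below the 49.4 CPM of the first-run tCDCA library. The fitted Acadm difference of -0.46 ± 0.19 (SE) did not pass the test (edgeR adjusted p = 0.155). Of the alternatives, only the fit without tCDCA replicate 1 called Acadm (-0.60, edgeR adjusted p = 0.0484). Acaa2, the thiolase that closes the turn, differed by 0.28 ± 0.19.

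The auxiliary enzymes, which reshape the double bonds of unsaturated chains, gave no call. Decr1, the 2,4-dienoyl-CoA reductase, was nearest the threshold. It was at 15.6, 31.5 and 30.2 CPM with DMSO and at 25.9, 9.5, 22.2 and 8.8 CPM with tCDCA, so the groups overlapped. The difference was -0.83 ± 0.29 (SE; edgeR adjusted p = 0.0883). It passed without DMSO replicate 2 (Decr1 at -1.09, adjusted p = 0.0265) and without tCDCA replicate 3 (-1.13, adjusted p = 0.0197). Ech1, Eci1 and Eci2, isomerases that move double bonds, had values of -0.47, -0.14 and 0.31. The 2 subunits of electron transfer flavoprotein, Etfa and Etfb, were at -0.13 and -0.10, and Etfdh, which hands their electrons to ubiquinone, was at -0.17.

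Peroxisomes shorten very long chains. Pex11a, which takes part in peroxisome division and is a known PPAR alpha target, was at -0.53 ± 0.21 (SE; edgeR adjusted p = 0.145). Ehhadh, the bifunctional enzyme of the peroxisomal pathway, was close to the detection limit. It had 2 counts over the 3 DMSO libraries and 30 over the 4 tCDCA libraries, a ratio of 8.76 in CPM with an exact 95% interval of 2.22 to 75.6 for counting error only. The edgeR adjusted p was 0.102, tCDCA replicate 3 had 0 counts, and the removed DMSO library stood at 3.35 CPM. Of the alternatives, only the fit without tCDCA replicate 3 called Ehhadh (3.64, edgeR adjusted p = 0.0385), against the same 2 DMSO counts. Acaa1b had 21 counts with DMSO and 3 with tCDCA, a ratio of 0.0834 (0.0159 to 0.279, counting error only), and it was not tested. Its reads can be shared with the near-identical Acaa1a. Acot1 and Acot2, thioesterases that release fatty acids from coenzyme A, are near-identical too. Their differences of -0.18 and -0.10 are uncertain for that reason.

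Among the PPAR targets outside the pathway, Vnn1 and Creb3l3 fell. Vnn1 encodes the pantetheinase vanin 1, which recycles a building block of coenzyme A. It was at 18.3, 35.7 and 20.2 CPM with DMSO, and at 14.3 CPM in the first-run tCDCA library and 5.77, 4.70 and 2.51 CPM in those of the second run. All 4 tCDCA libraries lay below the DMSO libraries. Vnn1 fell by 2.07 on the log2 scale, 4.20-fold (SE 0.37; edgeR adjusted p = 0.000437). Of 19 alternatives, 18 kept the call. A fit to the DMSO and tCDCA libraries alone, which cannot share the run term with other groups, did not (-1.78, edgeR adjusted p = 0.0861).

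Creb3l3 encodes a membrane-bound transcription factor of liver and intestine that acts with PPAR alpha on genes of fat oxidation and triglyceride clearance. In the removed DMSO library, of the first run, Creb3l3 was at 77.4 CPM, next to 52.2 CPM in the first-run tCDCA library. In the used libraries Creb3l3 was at 175, 357 and 184 CPM with DMSO and at 52.2, 129, 34.7 and 49.6 CPM with tCDCA, without overlap. It fell by 1.67 on the log2 scale, 3.18-fold (SE 0.43; edgeR adjusted p = 0.0346). The call held under 7 of 19 alternatives. With replicate number as a block Creb3l3 was at -1.63 (edgeR adjusted p = 0.0663), and without DMSO replicate 3 at -1.26 (adjusted p = 0.201). It was also lost without DMSO replicate 4, tCDCA replicate 3 or tCDCA replicate 4 (-1.82, -1.39 and -1.50; edgeR adjusted p = 0.0501, 0.0883 and 0.104).

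Fabp1, the liver-type fatty acid binding protein, varied widely between libraries. It was at 19.6, 76.6 and 32.7 CPM with DMSO and 4.01, 30.2, 14.4 and 6.60 CPM with tCDCA, and the groups overlapped. The difference of -1.35 ± 0.55 (SE) gave an edgeR adjusted p of 0.203. Pdk4, the kinase that turns off pyruvate dehydrogenase when fat is burned, pointed the other way. It was at 8.25, 6.29 and 5.54 CPM with DMSO and 6.84, 11.9, 21.7 and 12.6 CPM with tCDCA. The Pdk4 difference of 1.05 ± 0.37 (SE) did not pass (edgeR adjusted p = 0.0952). In the second run alone it was 1.21 ± 0.35 (edgeR adjusted p = 0.0336). Plin2, a lipid droplet coat protein, and Angptl4, an inhibitor of lipoprotein lipase, were at 0.43 ± 0.22 and 0.23 ± 0.34.

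**Figure D2:**
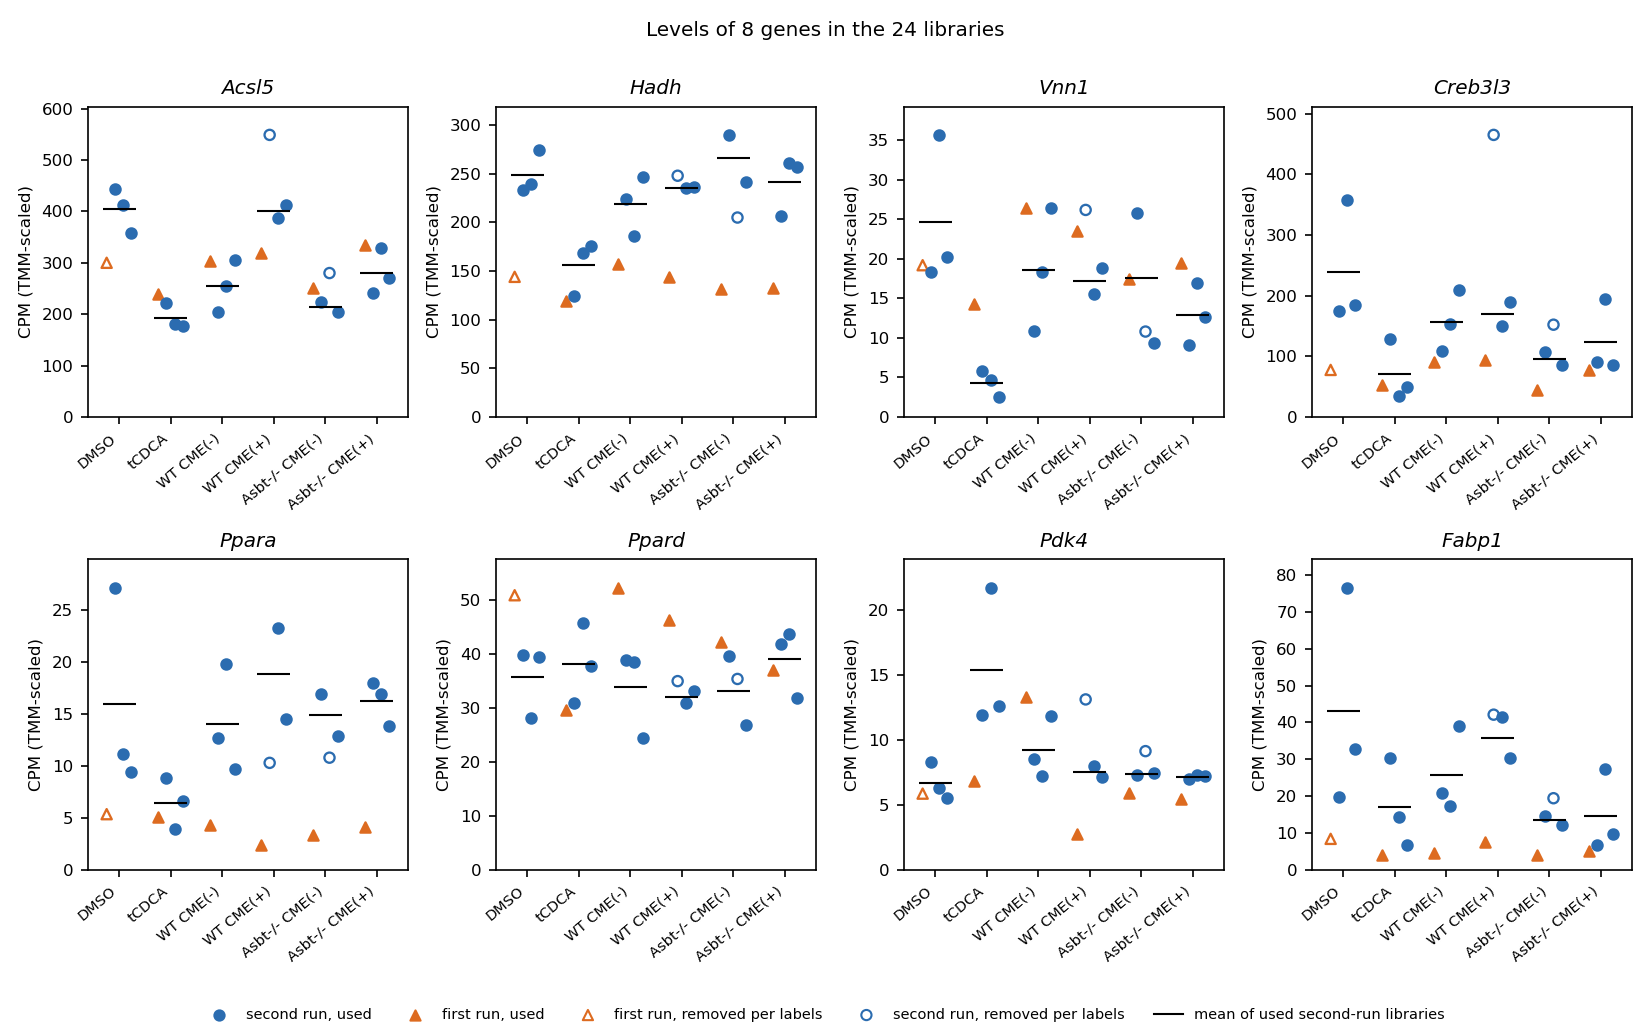
CPM (vertical axis, linear from 0) of 8 genes in all 24 libraries by group, replicates 1 to 4 from left to right within a group, with run and removal shown by symbol and the mean of used second-run libraries as a line. For Acsl5, Hadh, Vnn1 and Creb3l3 all 4 tCDCA libraries lie below the used DMSO libraries, and Fabp1 is lower in the first-run library than in the second-run libraries of each treated group.

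Enterocyte markers moved with tCDCA. Of 18 absorptive enterocyte markers tested, 15 fell with tCDCA and none rose, with a median of -1.56 on the log2 scale. Their summed level was 8720 to 13800 CPM in the DMSO libraries and 2710 to 4910 CPM in the tCDCA libraries. Each marker had counts in both groups, and Lct was at 0 in at least 1 tCDCA library (median 0.669 CPM; 2.14 to 49.3 CPM with DMSO). In whole fragments, fewer cells of a type and less RNA per cell cannot be told apart. Other cell types moved as well. Of 6 Paneth cell markers, Ang4 and Mmp7 rose (0.69 and 0.63; edgeR adjusted p = 0.0359 and 0.0424), with a list median of 0.70 and summed levels of 28200 to 44200 CPM against 21100 to 24900 CPM with DMSO. Of 6 goblet cell markers, Fcgbp and Zg16 fell by 0.71 and 0.56 (edgeR adjusted p = 0.00758 and 0.04), and the list summed to 3490 to 4260 CPM against 4580 to 5940 CPM. The haemoglobin genes Hbb-bs and Hbb-bt, 2 of 4 tested erythrocyte markers, fell by 0.63 and 1.06 (edgeR adjusted p = 0.038 and 0.048). That list summed to 96.1 to 163 CPM in the second-run tCDCA libraries and 312 CPM in the first-run one. With DMSO, all of the second run, it summed to 155 to 204 CPM. Cd14, 1 of 9 myeloid markers, rose by 0.93 (edgeR adjusted p = 0.0263). The myeloid list was at 91.3 to 134 CPM in the second-run tCDCA libraries and 333 CPM in the first-run one, against 81 to 114 CPM with DMSO. The tested markers of smooth muscle (9, median -0.03), fibroblasts (7, -0.52), endothelium (6, 0.32), adipocytes (8, -0.38) and T and NK cells (4, -1.06) gave no call. The part of these marker changes in the falls of Acsl5, Vnn1, Creb3l3 and Hadh was not tested.

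Other genes of the same processes were read from lists of genes outside the 34. Of 26 tested genes of fatty acid oxidation, 5 fell and 1 rose with tCDCA, with a median of -0.15. Scp2, the peroxisomal thiolase and lipid carrier, fell by 1.03 ± 0.21 (log2, SE; edgeR adjusted p = 0.00134). Of 22 tested PPAR partners and targets, 1 fell: Cyp4f14, a fatty acid hydroxylase, by 1.25 ± 0.18 (edgeR adjusted p = 1.01e-05). The median of that list was -0.40. In the tricarboxylic acid cycle, which takes up the acetyl groups, 3 of 16 genes fell (Ogdh, Cs and Mdh2, at -0.80, -0.58 and -0.49) and the median was -0.11. Of 16 genes of the hypoxia response, Ndrg1 and Car9 rose (0.74 and 0.53), Mxi1 fell by 1.06, and the median was 0.15.

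**Figure D3:**
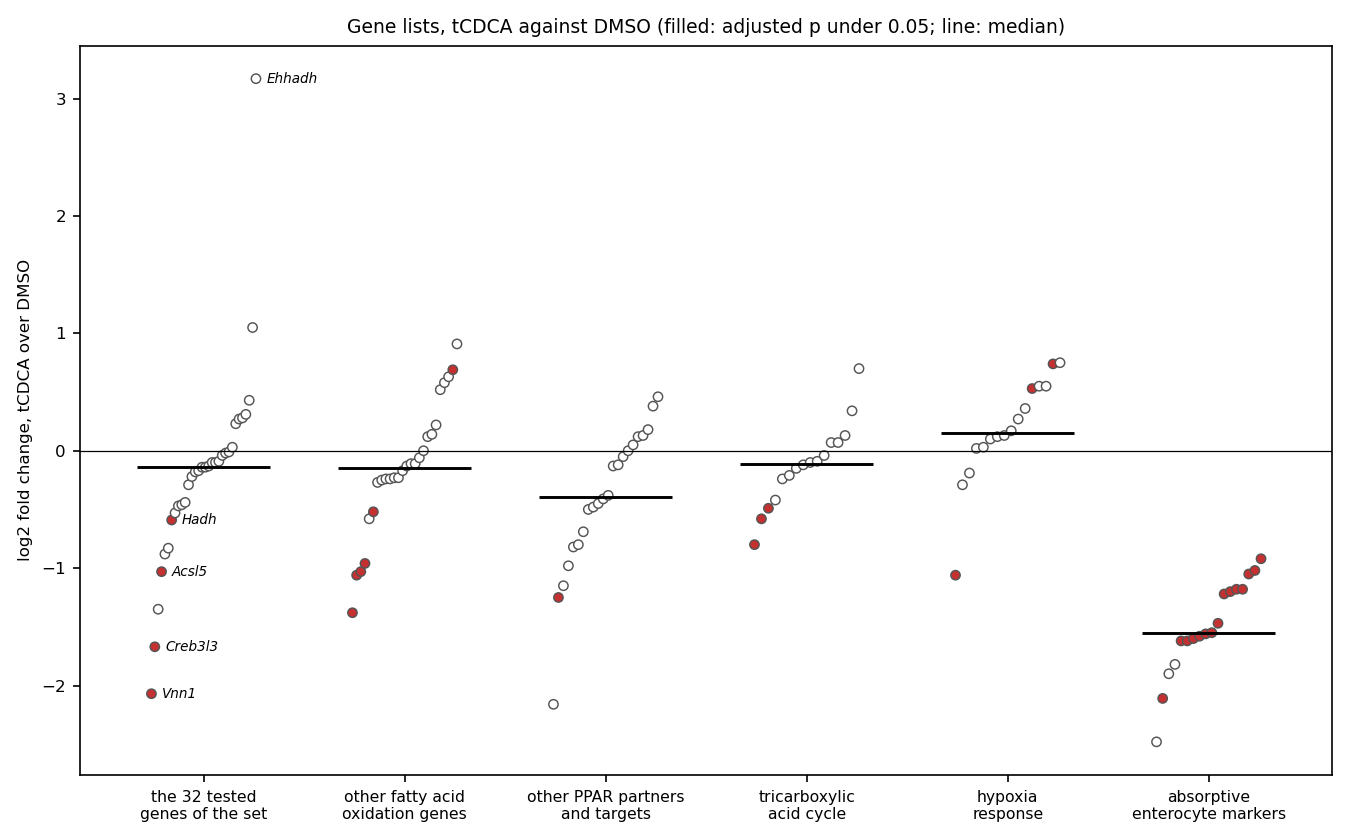
Log2 fold change with tCDCA over DMSO (vertical axis) for each tested gene of 6 lists, with the list median as a line and filled points for genes that passed the test. The medians of the 32 genes and of the other fatty acid oxidation genes lie near 0 at -0.14 and -0.15, and that of the enterocyte markers at -1.56.

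The extracts were each compared with the same 3 DMSO libraries, so these comparisons share their controls and are given side by side only. Acsl5 was the only one of the 32 genes that edgeR called in any of these 4 extract comparisons. With Asbt-/- CME(-) it fell, as 1 call among the 32 genes, where 0.952% of all genes were called. Acsl5 was at 251, 223 and 204 CPM in the 3 used libraries of that group, all below the 358 to 444 CPM of DMSO. The fall was 0.90 on the log2 scale, 1.86-fold (SE 0.18; edgeR adjusted p = 0.00876). The call was lost under 6 of 17 alternatives. Among these 6 was the fit without Asbt-/- CME(-) replicate 4 (-0.85, edgeR adjusted p = 0.121). Another was the fit with the removed DMSO library, at 300 CPM, added (-0.75, edgeR adjusted p = 0.0637).

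None of the 32 genes was called with WT CME(-), where 0.297% of all genes were. An unadjusted edgeR p under 0.05 was reached by 3 of the 32 and by 1231 of all 13125 genes. Acsl5 had the smallest p. It was at 304, 204, 255 and 306 CPM, all below DMSO, and the difference was -0.64 ± 0.16 (SE; edgeR adjusted p = 0.0832). DESeq2 called it as the single gene of the 32 (-0.64, DESeq2 adjusted p = 0.0202). Ehhadh came next, with 32 counts against the 2 counts of DMSO, a ratio of 11.7 (2.99 to 101, counting error only), and an edgeR adjusted p of 0.212.

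With Asbt-/- CME(+), 2.31% of all genes were called and none of the 32. Of the 32, 6 had an unadjusted edgeR p under 0.05, as did 1997 of all 13125 genes. Acsl5 was at 335, 241, 329 and 271 CPM and differed by -0.51 ± 0.16 (SE; edgeR adjusted p = 0.0941). DESeq2 called Acsl5 there as well (adjusted p = 0.0364) and no other gene of the set. Ehhadh had 43 counts, a ratio of 11.4 (2.98 to 97.4), and an edgeR adjusted p of 0.0937. With WT CME(+), 0.175% of all genes were called and none of the 32 by edgeR or DESeq2. The unadjusted edgeR p was under 0.05 for 4 of the 32 and for 1317 of all 13125 genes. Ehhadh had 29 counts, a ratio of 13.0 (3.29 to 113), with an edgeR adjusted p of 0.205. Acaa2 was at 66.6, 62.5 and 76.3 CPM against 46.5, 46.9 and 46.8 CPM with DMSO, and differed by 0.54 ± 0.20 (SE; edgeR adjusted p = 0.322). Acsl5 was at 320, 388 and 413 CPM there, which overlapped DMSO, and differed by -0.16. The Ehhadh ratios of all 5 treatments rest on the same 2 counts of the DMSO libraries, all of the second run. In the first run, the removed DMSO library had 3.35 CPM of Ehhadh, and the used libraries had 1.31 to 2.12 CPM.

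**Figure D4:**
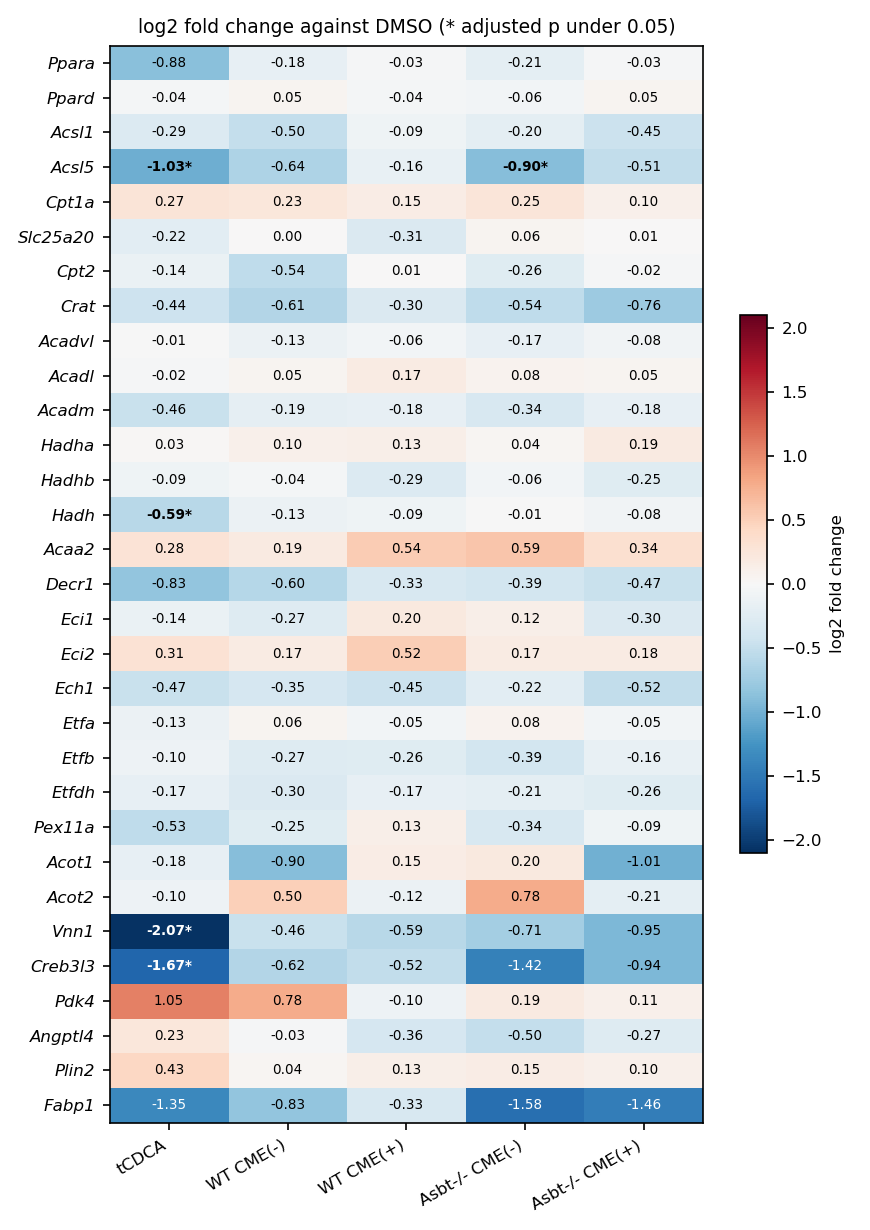
Log2 fold change against DMSO of 31 genes (rows) in the 5 treatments (columns), printed in each cell, with an asterisk for those that passed the test; Ehhadh is left out because DMSO had 2 counts of it. The asterisks are Acsl5, Hadh, Vnn1 and Creb3l3 with tCDCA and Acsl5 with Asbt-/- CME(-).

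Genes outside the 34 were also read in the extract comparisons. Of all genes, 0.952% were called with Asbt-/- CME(-) and 2.31% with Asbt-/- CME(+). Of the other fatty acid oxidation genes, Acat1, a thiolase that also acts in ketone metabolism, and Acsl3, an acyl-CoA synthetase, rose with Asbt-/- CME(+) by 0.85 ± 0.18 and 0.86 ± 0.24 (log2, SE; edgeR adjusted p = 0.00387 and 0.045). Crot, the peroxisomal carnitine octanoyltransferase, fell by 0.99 ± 0.26 (edgeR adjusted p = 0.0296) in that comparison. None of the 26 was called with the other 3 extracts. Cyp4f14 fell with Asbt-/- CME(-) and Asbt-/- CME(+), by 0.74 ± 0.19 and 0.69 ± 0.18 (edgeR adjusted p = 0.049 and 0.0251), and Cidec, a lipid droplet gene, fell with Asbt-/- CME(+) by 1.48 ± 0.37 (edgeR adjusted p = 0.0214). Mdh2, of the tricarboxylic acid cycle, fell by 0.67 ± 0.17 with Asbt-/- CME(-) and by 0.55 ± 0.15 with Asbt-/- CME(+) (edgeR adjusted p = 0.0324 and 0.0387). The enterocyte markers had medians of -0.60, -0.44, -0.82 and -0.73 with WT CME(-), WT CME(+), Asbt-/- CME(-) and Asbt-/- CME(+), with 2, 0, 2 and 3 of 18 called, all lower.

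Whether tCDCA differed from the extracts was tested directly. Against WT CME(+), 2 of the 32 genes were called, both lower with tCDCA, where 1.55% of all genes were. Acsl5 was lower by 0.87 ± 0.16 in log2 (log2 change -0.87, SE; edgeR adjusted p = 0.002), and all 4 tCDCA libraries (177 to 240 CPM) lay below the 3 of WT CME(+) (320 to 413 CPM). Vnn1 had a log2 change of -1.48 ± 0.36 (edgeR adjusted p = 0.0268). Its WT CME(+) libraries had 23.5, 15.6 and 18.9 CPM, all above those of tCDCA. The Vnn1 call was lost without any single library of either group except tCDCA replicate 1, with edgeR adjusted p of 0.0619 to 0.163.

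Against WT CME(-), where 0.541% of all genes were called, Vnn1 was the only one of the 32. It was at 26.4 CPM in the first-run WT CME(-) library and at 10.9, 18.3 and 26.4 CPM in the second run. The log2 change was -1.61 ± 0.34 (SE; 3.05-fold lower with tCDCA; edgeR adjusted p = 0.0196), and within each run the tCDCA libraries were lower. The Vnn1 call was lost without WT CME(-) replicate 1, 3 or 4 or tCDCA replicate 3 or 4 (edgeR adjusted p from 0.0538 to 0.109). Against Asbt-/- CME(-), with 0.114% of all genes called, none of the 32 was called. The unadjusted edgeR p was under 0.05 for 5 of the 32 and for 1090 of all 13125 genes. Hadh and Vnn1 had the smallest p, with differences of -0.58 ± 0.16 and -1.36 ± 0.37 (SE; edgeR adjusted p = 0.151 and 0.166). DESeq2 called these 2 genes (adjusted p = 0.0347 for both), as did edgeR on the second run alone, with Vnn1 at -2.03 and Hadh at -0.78 (edgeR adjusted p = 0.0325 and 0.0466).

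Against Asbt-/- CME(+), 1.93% of all genes were called and none of the 32. Of the 32, 6 had an unadjusted edgeR p under 0.05, as did 1626 of all 13125 genes. Acsl5 and Hadh were closest, at -0.52 ± 0.15 and -0.51 ± 0.15 (SE; edgeR adjusted p = 0.0598 and 0.0629). DESeq2 called 3 genes, Acsl5, Hadh and Vnn1 (adjusted p = 0.0188, 0.0199 and 0.0333). Without tCDCA replicate 1 edgeR called Hadh, Vnn1 and Ppara (-0.60, -1.62 and -1.38; edgeR adjusted p = 0.0349, 0.0119 and 0.0403). Among genes outside the 34, Acsl4, an acyl-CoA synthetase, was higher with tCDCA than with WT CME(+) and Asbt-/- CME(+) (0.68 and 0.81; edgeR adjusted p = 0.0442 and 0.00376). Ucp2, a mitochondrial carrier, was lower in both comparisons (-0.91 and -0.64; edgeR adjusted p = 0.00237 and 0.0268). Acat1 was lower than with Asbt-/- CME(+) (-0.73; edgeR adjusted p = 0.00791), and Cyp4f14 lower than with WT CME(-) and WT CME(+) (-0.71 and -0.78; edgeR adjusted p = 0.0299 and 0.0114).

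The forms of the extract, CME(-) and CME(+), were compared within each donor genotype. If CME(+) is the depleted form, as taken here, this comparison concerns the bile acids of the extract. For WT donors 0.0% of all genes passed, 831 had an unadjusted p under 0.05, and DESeq2 called 12 genes. None of these was among the 32 genes, of which 3 had an unadjusted edgeR p under 0.05. Acsl5 came first, at -0.48 ± 0.16 (SE; edgeR adjusted p = 0.538). Its second-run levels were 204, 255 and 306 CPM with CME(-) and 388 and 413 CPM with CME(+), and the first-run levels were 304 and 320 CPM. Pdk4 was next (0.88 ± 0.38; edgeR adjusted p = 0.706). For Asbt-/- donors 0.0229% of all genes passed (3 genes, none of the 32), and DESeq2 called 56, none of the 32. An unadjusted edgeR p under 0.05 was found for 2 of the 32 and for 933 of all 13125 genes. Acot2 was at 21.9, 25.0 and 16.9 CPM with CME(-) and at 20.0, 8.31, 8.84 and 6.66 CPM with CME(+). The Acot2 difference was 0.99 ± 0.33 (SE; edgeR adjusted p = 0.394), and that of Acsl5 was -0.39 ± 0.16 (adjusted p = 0.607).

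The difference between these form contrasts, Asbt-/- donors against WT donors, gave 0.0% of all genes called, with 491 at an unadjusted p under 0.05. DESeq2 called 0 as well. Acaa2 and Acot1 had the smallest p of the 32, at 0.60 ± 0.26 and 2.27 ± 1.01 (SE; edgeR adjusted p = 1 for both). Donor genotype within a form, WT against Asbt-/-, gave 0.0% for CME(-) and 0.0% for CME(+), with 531 and 556 genes at an unadjusted p under 0.05 and 0 called by DESeq2. In each, 1 of the 32 genes had an unadjusted p under 0.05. These were Acaa2 with CME(-), at -0.40 ± 0.18 (SE; edgeR adjusted p = 0.997), and Acsl5 with CME(+), at 0.35 ± 0.16 (edgeR adjusted p = 1).

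More of these genes were called between the libraries taken as first and second run than in any treatment comparison. The comparison of runs was added after the data had been seen, and it uses the 5 groups with libraries of both runs. Between runs 16 of the 32 genes were called (50%), 11 higher and 5 lower in the first run, where 37.3% of all genes were called. Without scaling factors, which moved the median change of all genes from -0.02 to 0.36, the split was 19 higher and 2 lower. Mitochondrial rRNA moved with the run. Its share of a library's counts was 6.78 to 8.29% in run 1, against 17.6 to 34.6% in run 2, where tCDCA replicate 3 alone lay lower, at 5.29%. The runs are known from the column prefixes only. Differences in culture, tissue or sequencing between them cannot be told apart.

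Ppara, the receptor, was lower in the first run. Its 5 first-run levels ran from 2.33 to 5.05 CPM with a median of 4.12, and the 16 of the second run from 3.92 to 27.2 CPM with a median of 13.4. It was lower by 1.71 log2 units in the first run (log2 change -1.71 ± 0.31, SE; edgeR adjusted p = 2.87e-05). Fabp1 was lower too (-2.01 ± 0.45; edgeR adjusted p = 0.00212). In the mitochondrial turns Hadh and Hadha were lower (-0.68 ± 0.11 and -0.44 ± 0.10; edgeR adjusted p = 7.6e-06 and 0.000728) and Acadl was higher (0.71 ± 0.11; edgeR adjusted p = 2.15e-06). Plin2 was higher by 0.82 ± 0.14, Angptl4 by 1.12 ± 0.21 and Acsl1 by 0.49 ± 0.16. Cpt2, Acot2 and Decr1 were higher by 0.64, 0.81 and 0.65, and Cpt1a, Etfb, Pex11a and Vnn1 by 0.41 to 0.67. Etfdh, at -0.40, was the last of the 5 lower genes. Its call was lost under 15 of 27 alternatives.

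Markers of several cell types moved with the run, those of adipocytes the furthest. All 8 tested markers of 10 listed were higher in the first run, with a median log2 change of 5.13. Their summed level was 287 to 755 CPM in the 5 used first-run libraries, highest in tCDCA replicate 1, and 27.1 to 89.3 CPM in the used second-run libraries. The removed DMSO library, also of the first run, had 26.8 CPM. All 4 tested T and NK cell markers were higher as well, with summed levels of 49 to 61.1 CPM in the first run and 2.04 to 15.4 CPM in the second. Myeloid markers were higher for 7 of 9, at 278 to 333 CPM against 73 to 134 CPM, and fibroblast markers for 4 of 7, at 669 to 917 CPM against 248 to 489 CPM. The B and plasma cell markers summed to 338 to 468 CPM against 91.8 to 153 CPM, with the 1 tested marker higher, and all 4 tested erythrocyte markers were higher. Of the 18 enterocyte markers 11 were lower and 3 higher, with a median of -0.75. The part of these cell types and of mitochondrial rRNA in the run differences of the 32 genes was not tested.

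**Figure D5:**
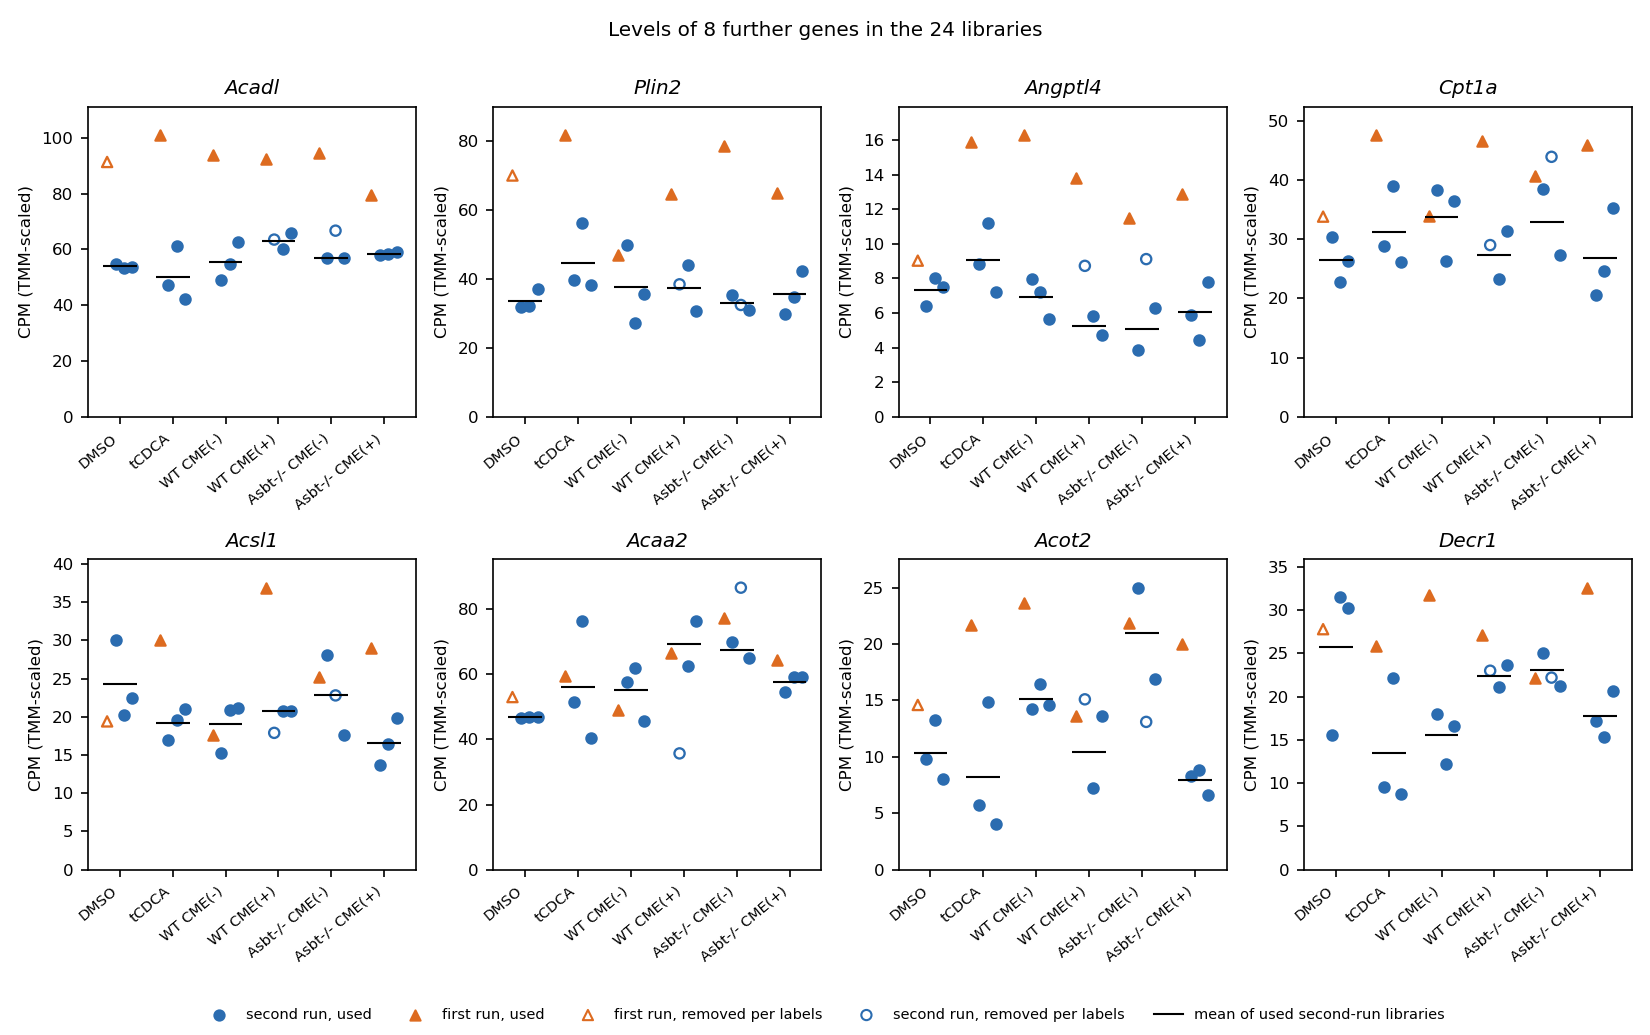
CPM (vertical axis, linear from 0) of 8 further genes in all 24 libraries by group, with the same symbols for run and removal and a line for the mean of used second-run libraries. The first-run triangles lie above the second-run circles for Acadl and Angptl4 in every group, the removed DMSO library included.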

How the data were processed

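The authors deposited a single table of whole-number counts per gene, not normalized, for ileal fragments in 24 libraries. The submitters' processing notes name cutadapt, FastQC, Picard and HISAT2, without versions, and build GRCm39. Which counter, strand setting and annotation were used is not given in the sources used here. Without a stated strand setting, overlapping genes on opposite strands are uncertain. Symbols came from GENCODE M21 (GRCm38) and named 51884 of 57126 identifiers.

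In R 4.3.3, edgeR 4.0.16 filtered low counts (filterByExpr), scaled libraries by TMM and fitted a robust quasi-likelihood model with terms for group and run to the 21 used libraries. The 13125 genes tested were adjusted by Benjamini-Hochberg in each comparison, and an adjusted p under 0.05 made a call. Tests were two-sided. The common biological coefficient of variation was 0.266. DESeq2 1.42.0 was an alternative, as were other scalings, filters and sets of libraries. About 656 genes would reach an unadjusted p under 0.05 by chance. Levels of removed libraries were scaled to the same reference.

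Labels tie CME(-) and CME(+) replicates 2 to 4 to shared extract donors within a genotype. Deviations of same-donor libraries from their group means correlated at 0.03, 0.06, 0.00 and -0.01, and those of different-donor libraries at -0.08 to 0.07. WT CME(+) and Asbt-/- CME(-) have 2 used second-run libraries each, whose deviations mirror each other. These values therefore cannot show whether the donors differ. For the comparisons of CME(-) with CME(+), a fit with these extract donors as a block was an alternative. For the other treatment comparisons the block was the replicate number.

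The 34 genes were listed by name, without a cut on their values, but this list, the other lists and the tests were chosen with earlier results of these data known. In each comparison every called gene was named (where more than 10 were called, the 10 with the smallest p), or, where none was, the 2 with the smallest p. From other lists, up to 3 called genes with the smallest p were named. Some genes that this rule names are not reported here.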

Additional observations from a re-analysis of the deposited data

Results flagged for a closer look

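Groups of 4 used libraries were searched for a level set apart from the other 3 by Dixon's criterion at 95%. Of 96 levels searched, 5 were set apart, and chance flags about 1 in 20. Asbt-/- CME(+) gave 4 of them. Its first-run library, replicate 1, had the highest Acadl (79.4 CPM, the others 57.9 to 58.9), the highest Acot2 (20.0 CPM, the others 6.66 to 8.84) and the lowest Pdk4 (5.43 CPM, the others 6.97 to 7.28). Creb3l3 was at 194 CPM in Asbt-/- CME(+) replicate 3 and at 77.5 to 89.8 CPM in the others of that group. Hadhb was lowest in WT CME(-) replicate 3, at 24.1 CPM, with the others at 33.9 to 35.7 CPM. Between runs Acadl and Acot2 were higher in the first run over the 5 groups, and Pdk4 was not called.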

How the results depend on the processing

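No called gene changed direction under any alternative. Of 148 refits of single genes called in the treatment comparisons, 106 kept the call and 42 lost it; of 432 refits of those called between runs, 408 kept it and 24 lost it. Of 282 refitted counts of called genes, 241 stayed within 1.5 times the reported count or, where that was 0, stayed at 0. With tCDCA against DMSO (4 calls) 2 were left without the run term and 1 with the compared groups alone. For Asbt-/- CME(-) against DMSO (1 call) 0 were left without scaling, without the run term, with all 24 libraries, with the compared groups alone or with DMSO replicate 1 added. DESeq2 gave 1 call in place of 0 for WT CME(-) and Asbt-/- CME(+) against DMSO, 2 for tCDCA against Asbt-/- CME(-) and 3 against Asbt-/- CME(+). Without the count filter 1 call appeared for WT CME(-) against DMSO and for tCDCA against Asbt-/- CME(-), and 2 for tCDCA against Asbt-/- CME(+). For tCDCA against WT CME(-) (1 call) and WT CME(+) (2 calls), 0 were left without the run term or with the compared groups alone, and all 24 libraries gave 4 against WT CME(+). The second run alone gave 2 for tCDCA against Asbt-/- CME(-). With tCDCA libraries 1 and 3 both left out, chosen after seeing the data, tCDCA gave 2 calls each against WT CME(-), Asbt-/- CME(-) and Asbt-/- CME(+). The cause was not tested.

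Leaving out single libraries gave 2 to 6 calls for tCDCA against DMSO, 0 to 1 for Asbt-/- CME(-) and for Asbt-/- CME(+) against DMSO, 0 to 1 for tCDCA against WT CME(-), 1 to 2 against WT CME(+), 0 to 1 against Asbt-/- CME(-) and 0 to 3 against Asbt-/- CME(+). A block by replicate number left 3 calls for tCDCA against DMSO, without Creb3l3. That block, and the block by extract donor in the comparisons of forms, changed no other call in the treatment comparisons. Without scaling factors the median of all genes with tCDCA against DMSO moved from 0.00 to 0.13, and that of the 32 genes from -0.14 to 0.03. Depth limits Ehhadh, Acaa1b, Acot1 and Cyp4a10, which had 1 to 234 counts each over the 24 libraries.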
